A study of Mus musculus with 12 samples.

Results

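Genes of glycogen metabolism were followed in RNA-seq of C2C12 GFP cultures. They were 9 of the 55536 genes in the count table, namely *Ppp1r3a*, *Ppp1r3c*, *Gys1*, *Gyg*, *Pygm*, *Phka1*, *Phkg1*, *Gbe1*, and *Ugp2*. The genes were listed by name for their part in glycogen metabolism, and the list was chosen by the size of the change of *Ppp1r3a* in these same libraries, one of the largest seen. The values of *Ppp1r3a* are therefore given as a description without a test, and the counts of changed genes cover the 8 other members. All 9 genes were found under a single Ensembl identifier each. C2C12 is a mouse myoblast line that fuses into myotubes when serum is withdrawn, and the GFP derivative carries green fluorescent protein. The cells were differentiated without a coating (control) or on Collagen I, on fibronectin, or on Geltrex™, a basement membrane extract. Each of the 4 groups had 3 samples, 12 in all. The cultures were of 1 cell line, the day on which RNA for sequencing was taken is not given in the sources used here, and nothing states that the 3 samples of a group came from separate cultures, so the tests measure the spread between these samples.

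Glycogen is the branched glucose store of muscle. Glycogenin, the product of *Gyg*, starts a chain on itself, the muscle glycogen synthase encoded by *Gys1* lengthens it with glucose from UDP-glucose, the product of the *Ugp2* enzyme, and the branching enzyme encoded by *Gbe1* adds branch points. The muscle glycogen phosphorylase encoded by *Pygm* removes glucose units, and phosphorylase kinase, of which *Phka1* and *Phkg1* encode the muscle forms of a regulatory and the catalytic subunit, switches it on. Protein phosphatase 1 switches the synthase on and the phosphorylase off when targeting subunits bring it to glycogen. Such subunits include those encoded by *Ppp1r3a*, the large striated muscle form, and *Ppp1r3c*, a more widely expressed form.

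The bases just before the transcription starts of *Ppp1r3a*, *Pygm*, and *Gys1* are shown as examples from the genes that differed between coatings. The windows of *Gyg* and *Ppp1r3c*, which also differed, lie partly within GENCODE transcripts and are described by motif counts only. Each line gives the 250 bases upstream of the RefSeq start in GRCm38.p6, 5′ to 3′ on the strand of the gene, with E-boxes (CANNTG), a motif bound by myogenic factors such as MyoD and myogenin, in capitals. The windows lie at chr6:14755275-14755524 on the minus strand for *Ppp1r3a*, at chr19:6384158-6384407 on the plus strand for *Pygm*, and at chr7:45434589-45434838 on the plus strand for *Gys1*.
Ppp1r3a: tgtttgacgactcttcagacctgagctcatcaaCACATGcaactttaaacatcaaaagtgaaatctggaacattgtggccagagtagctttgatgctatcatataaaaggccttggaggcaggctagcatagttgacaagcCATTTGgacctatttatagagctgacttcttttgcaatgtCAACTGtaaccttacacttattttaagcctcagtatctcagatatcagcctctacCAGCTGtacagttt
Pygm: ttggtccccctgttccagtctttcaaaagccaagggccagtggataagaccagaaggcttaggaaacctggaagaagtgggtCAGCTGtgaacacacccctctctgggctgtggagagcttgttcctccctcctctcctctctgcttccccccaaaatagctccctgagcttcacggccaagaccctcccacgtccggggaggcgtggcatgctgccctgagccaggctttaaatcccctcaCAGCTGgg
Gys1: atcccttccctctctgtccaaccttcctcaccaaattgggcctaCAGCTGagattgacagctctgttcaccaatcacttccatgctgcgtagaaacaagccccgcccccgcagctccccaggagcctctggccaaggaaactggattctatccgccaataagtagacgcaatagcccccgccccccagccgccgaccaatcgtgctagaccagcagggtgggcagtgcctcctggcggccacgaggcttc

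The window of *Ppp1r3a* held 4 E-boxes, of which 1, at 14 bases before the start, had the form CAGCTG. It also held 1 match to the MEF2 consensus, at 100 bases before the start, and 2 matches to TATAAA, of which the one at 97 bases overlapped the MEF2 match. The window of *Pygm* held 2 E-boxes, both CAGCTG, at 168 and 8 bases before the start, and the last bases of this window lie in the first exon of the GENCODE gene model. *Gys1* had 1 CAGCTG at 206 bases, *Gyg* had 1 E-box of another form, and *Ppp1r3c* had 2 E-boxes, 1 of them CAGCTG. The members that were not called against the control held E-boxes as well. *Phkg1* had 5, none of them CAGCTG, *Phka1* had 2, 1 of them CAGCTG, *Gbe1* had 2 of other forms, and *Ugp2* had 1 before each of its 2 RefSeq starts, 1 of them CAGCTG. The window of *Phkg1* and 1 of the windows of *Ugp2* lie within the span of the GENCODE gene itself. Both strands were searched, and CAGCTG is one form of CANNTG. Over 32851 mouse promoter windows of this length, 66.2% held CANNTG, 13.0% CAGCTG, 2.92% the MEF2 consensus, and 12.4% TATAAA. A match describes the letters of the window and is not evidence of binding.

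The total counts of the 12 samples lay between 22520404 and 27351766. Levels are given as CPM, counts scaled by library size with TMM, with the mean ± SD of 3 samples, and differences as log2 fold changes with the standard error (SE) of edgeR's quasi-likelihood model, which was fitted to all 12 samples and 14499 genes. A gene was called higher or lower at a Benjamini-Hochberg adjusted p of at most 0.05 over all of these genes. All 9 members passed the low-count filter, which asked for about 0.411 CPM in 3 samples, but *Ppp1r3a* passed on the control and Collagen I samples, since 0 of 3 fibronectin samples and 2 of 3 Geltrex™ samples reached that level. Myotube marker genes, which include *Myog*, *Acta1*, and *Myh3*, were all detected, with a summed level of 8166 to 9107 CPM in the control and 8770 to 9376 CPM on Collagen I, against 2631 to 2969 CPM on fibronectin and 3737 to 4167 CPM on Geltrex™. The cultures therefore carried the markers of the labelled cell type in every group but at different levels. In these bulk samples, fewer cells of a type and less RNA per cell cannot be told apart. The 3 Geltrex™ samples differed less from each other than samples of the other groups did, with a chi-square per degree of freedom of 2.17 to 4.54 between pairs, against 7.73 to 65.1 in the other groups. Differences beyond sampling noise do not show that the samples were separate cultures. They were analyzed as the 3 samples that the labels give, and the tests were repeated with the Geltrex™ counts summed into 1 sample.

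*Ppp1r3a* (chr6:14713977-14755274, minus strand) was low in the cultures on fibronectin and Geltrex™. In the control it had 50, 90, and 39 counts, or 1.99, 3.30, and 1.66 CPM, a mean of 2.32 ± 0.870 CPM (SD, n = 3). On Collagen I it had 79, 110, and 40 counts, or 3.42, 4.09, and 1.73 CPM, a mean of 3.08 ± 1.22 CPM. On fibronectin only 10, 5, and 5 counts were seen, or 0.371, 0.209, and 0.194 CPM, a mean of 0.258 ± 0.0982 CPM. Counts of this size carry a large counting error by themselves. On Geltrex™ it had 7, 15, and 12 counts, or 0.299, 0.618, and 0.541 CPM, a mean of 0.486 ± 0.167 CPM. The lowest control and Collagen I samples exceeded the highest samples on fibronectin and Geltrex™, whereas the control overlapped with Collagen I and fibronectin overlapped with Geltrex™. The third Collagen I sample was at the level of the lower control samples.

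The log2 fold change of *Ppp1r3a* was -3.14 (SE 0.44) on fibronectin over the control, a level 8.78-fold lower, and -2.25 (SE 0.40) on Geltrex™ over the control, a level 4.75-fold lower. Collagen I was 11.7-fold above fibronectin (log2 fold change 3.54, SE 0.43) and 6.30-fold above Geltrex™ (2.66, SE 0.40). Between Collagen I and the control the log2 fold change was 0.41 (SE 0.32), and between fibronectin and Geltrex™ it was -0.89 (SE 0.55). Among the 14499 genes fitted, *Ppp1r3a* ranked 21 from the lowest log2 fold change on fibronectin over the control and 101 on Geltrex™ over the control, and 20 from the highest on Collagen I over fibronectin and 59 over Geltrex™. These values led to the choice of the list and support nothing further.

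*Ppp1r3c* (chr19:36731731-36736653, minus strand), the other targeting subunit on the list, was highest on fibronectin and lowest on Geltrex™. It measured 3.42, 4.29, and 4.25 CPM in the control (3.99 ± 0.491 CPM) and 3.42, 3.72, and 4.70 CPM on Collagen I (3.95 ± 0.670 CPM). On fibronectin it measured 7.65, 7.45, and 7.15 CPM (7.42 ± 0.255 CPM), and on Geltrex™ 1.62, 1.69, and 1.80 CPM (1.71 ± 0.0913 CPM). All fibronectin samples were above and all Geltrex™ samples below the other 2 groups, which overlapped each other. *Ppp1r3c* rose on fibronectin over the control by 0.89 on the log2 scale (SE 0.15, edgeR adjusted p = 0.00033), a 1.86-fold difference. It fell on Geltrex™ below the control, with a log2 fold change of -1.22 (SE 0.17, edgeR adjusted p = 5.44e-05), a 2.34-fold difference. The direct comparison gave 4.34-fold more *Ppp1r3c* on fibronectin than on Geltrex™ (log2 fold change 2.12, SE 0.17, edgeR adjusted p = 2.66e-07). Collagen I was below fibronectin by a log2 fold change of -0.91 (SE 0.15, edgeR adjusted p = 0.000209) and above Geltrex™ by 1.21 (SE 0.17, edgeR adjusted p = 6.44e-05). Against the control, Collagen I did not pass the threshold, with a log2 fold change of -0.02 and a 95% interval of -0.35 to 0.32. With the Geltrex™ counts summed, *Ppp1r3c* was still called lower on Geltrex™ than in the control (edgeR adjusted p = 0.00389), on Collagen I (0.00434), and on fibronectin (0.000126).

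**Figure D1:**
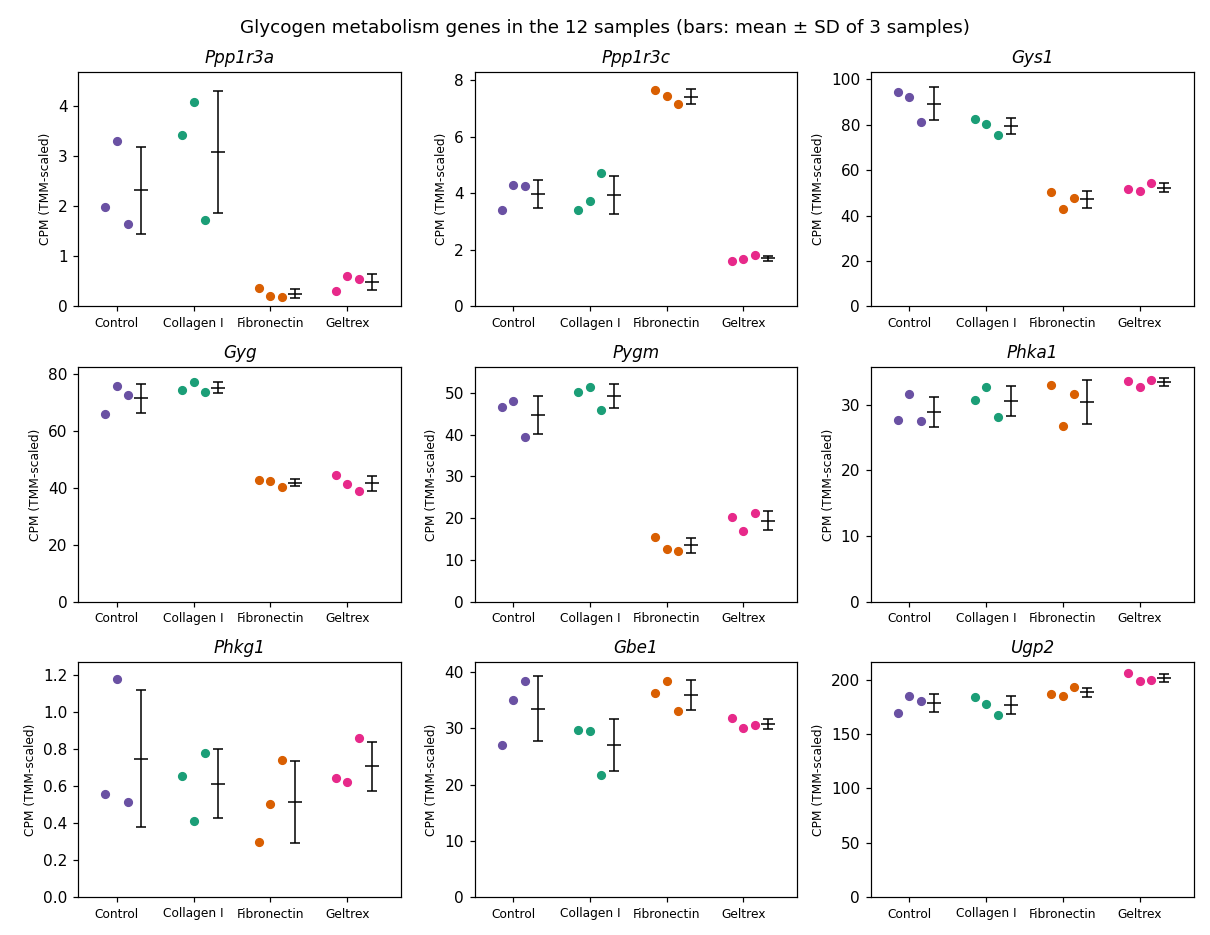
Level of each of the 9 glycogen genes in CPM (TMM-scaled, linear axis from 0) in the 12 samples; points are samples and bars are the mean ± SD of 3 samples. *Ppp1r3a*, *Gys1*, *Gyg*, and *Pygm* are lower in all fibronectin and Geltrex™ samples than in all control and Collagen I samples, while *Ppp1r3c* is highest on fibronectin and lowest on Geltrex™.

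Of the genes that build glycogen, the initiator and the synthase fell on fibronectin and Geltrex™, and the genes for the sugar donor and the branching enzyme did not pass the test against the control. *Gys1* (chr7:45434844-45456619, plus strand) measured 94.6, 92.4, and 81.0 CPM in the control (89.3 ± 7.28 CPM) and 82.3, 80.2, and 75.6 CPM on Collagen I (79.4 ± 3.46 CPM). With fibronectin it measured 50.6, 42.8, and 47.9 CPM (47.1 ± 3.93 CPM) and with Geltrex™ 51.7, 50.6, and 54.4 CPM (52.3 ± 1.95 CPM). No fibronectin or Geltrex™ sample reached the lowest control or Collagen I sample. The log2 fold change over the control was -0.92 on fibronectin (SE 0.08, edgeR adjusted p = 8.54e-07), a 1.90-fold difference, and -0.77 on Geltrex™ (SE 0.08, edgeR adjusted p = 3.85e-06), a 1.71-fold difference. *Gys1* was 1.69-fold higher on Collagen I than on fibronectin (edgeR adjusted p = 5.15e-06) and 1.52-fold higher than on Geltrex™ (edgeR adjusted p = 4.71e-05). Collagen I and the control did not differ at the threshold (log2 fold change -0.17, 95% interval -0.35 to 0.0064), nor did fibronectin and Geltrex™ (-0.15, 95% interval -0.33 to 0.03). Of the exon length of *Gys1*, 6.47% is shared with *Ruvbl2* on the other strand, and reads there cannot be assigned without knowing whether counting used the strand.

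*Gyg* (chr3:20122084-20155317, minus strand) measured 65.8, 75.7, and 72.6 CPM in the control (71.4 ± 5.06 CPM) and 74.3, 77.3, and 73.7 CPM on Collagen I (75.1 ± 1.90 CPM). It measured 42.6, 42.3, and 40.3 CPM on fibronectin (41.7 ± 1.26 CPM) and 44.3, 41.3, and 38.9 CPM on Geltrex™ (41.5 ± 2.72 CPM). The fibronectin and Geltrex™ samples overlapped and lay below all control and Collagen I samples. The log2 fold change over the control was -0.78 on fibronectin (SE 0.08, edgeR adjusted p = 2.28e-06) and -0.78 on Geltrex™ (SE 0.08, edgeR adjusted p = 1.63e-06). *Gyg* was 1.80-fold higher on Collagen I than on fibronectin (edgeR adjusted p = 6.89e-07) and 1.81-fold higher than on Geltrex™ (edgeR adjusted p = 5.83e-07). Between fibronectin and Geltrex™ the 95% interval of the log2 fold change was -0.16 to 0.17.

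*Gbe1*, the branching enzyme, had a mean of 33.5 ± 5.82 CPM in the control and of 27.1 ± 4.57 CPM on Collagen I. The mean was 36.0 ± 2.69 CPM with fibronectin and 30.8 ± 0.895 CPM with Geltrex™. It was called only between Collagen I and fibronectin, where it was lower on Collagen I by a log2 fold change of -0.41 (SE 0.13, edgeR adjusted p = 0.0181). The Collagen I samples measured 29.8, 29.6, and 21.8 CPM and the fibronectin samples 36.3, 38.5, and 33.1 CPM. That call rested on single samples, since without the third Collagen I sample the log2 fold change was -0.27 (edgeR adjusted p = 0.0905) and without the second fibronectin sample -0.36 (edgeR adjusted p = 0.0657).

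*Ugp2*, which supplies UDP-glucose, ranged from 177 ± 8.36 CPM on Collagen I and 179 ± 8.09 CPM in the control to 189 ± 4.26 CPM with fibronectin and 202 ± 3.81 CPM with Geltrex™. It was called only between Collagen I and Geltrex™, where the log2 fold change was -0.19 (SE 0.07, edgeR adjusted p = 0.0401). The call was lost with the Geltrex™ counts summed (edgeR adjusted p = 0.286), without a low-count filter (0.155), with a block for the replicate number (0.0578), and in 6 of the 12 fits that left out 1 sample, namely the second or the third of Collagen I, the first of fibronectin, or any of Geltrex™ (0.0523 to 0.122). Against the control, *Ugp2* on Geltrex™ had a log2 fold change of 0.18 (95% interval 0.03 to 0.32, edgeR adjusted p = 0.063), and DESeq2 called it (adjusted p = 0.0201). The call was also made by edgeR without the third Collagen I sample (adjusted p = 0.0491). A small part of its exon length, 2.54%, is shared with *Gm12043* on the other strand.

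On the side of breakdown, *Pygm* (chr19:6384399-6398459, plus strand), the phosphorylase of muscle, showed the largest fall among the tested members on fibronectin, and on Geltrex™ it fell about as much as *Ppp1r3c*. It measured 46.7, 48.1, and 39.5 CPM in the control (44.8 ± 4.58 CPM) and 50.2, 51.4, and 46.0 CPM on Collagen I (49.2 ± 2.82 CPM). It measured 15.6, 12.6, and 12.2 CPM on fibronectin (13.5 ± 1.82 CPM) and 20.3, 16.8, and 21.2 CPM on Geltrex™ (19.4 ± 2.32 CPM). The groups formed 3 levels, with control and Collagen I overlapping at the top, Geltrex™ below them, and fibronectin lowest. The log2 fold change over the control was -1.73 on fibronectin (SE 0.12, edgeR adjusted p = 3.77e-08), a 3.32-fold difference, and -1.21 on Geltrex™ (SE 0.11, edgeR adjusted p = 9.06e-07), a 2.31-fold difference. *Pygm* was 3.65-fold higher on Collagen I than on fibronectin (edgeR adjusted p = 1.24e-08) and 2.53-fold higher than on Geltrex™ (edgeR adjusted p = 2.62e-07). It was lower on fibronectin than on Geltrex™, with a log2 fold change of -0.53 (SE 0.12, edgeR adjusted p = 0.0055), and this call was lost with the Geltrex™ counts summed (log2 fold change -0.52, edgeR adjusted p = 0.0861). Between Collagen I and the control the log2 fold change was 0.14 (95% interval -0.10 to 0.37).

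The listed genes for subunits of phosphorylase kinase, *Phka1* and *Phkg1*, were not called in any of the 6 comparisons. The related *Phka2* and *Phkg2*, which are not on the list, had calls that are given below. *Phka1*, the muscle form of the alpha subunit, had a mean of 28.9 ± 2.34 CPM in the control, and the coatings gave 30.5 ± 2.28 CPM (Collagen I), 30.5 ± 3.34 CPM (fibronectin), and 33.4 ± 0.592 CPM (Geltrex™). Its largest log2 fold change was 0.21 on Geltrex™ over the control (SE 0.10, 95% interval 0.0041 to 0.41, edgeR adjusted p = 0.111). On fibronectin over the control its 95% interval was -0.13 to 0.28, which leaves out falls of the size seen for *Gys1*, *Gyg*, and *Pygm*. *Phkg1*, the muscle form of the catalytic subunit, had only 8 to 32 counts per sample, or means of 0.747 CPM in the control, 0.612 on Collagen I, 0.512 on fibronectin, and 0.705 on Geltrex™. Its interval was wide, from -1.46 to 0.34 on fibronectin over the control, so that both no change and a fall as large as that of *Gys1* lay within it at this depth. Of its exon length, 9.68% is shared with *Sumf2* on the other strand.

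Against the control, Collagen I changed 0 of the 8 tested members by edgeR, with 1 at an unadjusted p under 0.05 (*Gbe1*) and 0 called by DESeq2. Of all genes, 0.200% were called higher and 0.917% lower in that comparison. On fibronectin, 1 of 8 was higher, against 17.1% of all genes, and 3 were lower, against 14.7%. On Geltrex™, 0 of 8 were higher, against 16.4% of all genes, and 4 were lower, against 16.6%. Collagen I had 3 of 8 members higher than fibronectin and 2 lower, against 22.1% and 22.9% of all genes. Over Geltrex™, Collagen I had 4 of 8 higher and 1 lower, against 18.2% and 19.0%. Between fibronectin and Geltrex™, 1 of 8 was higher on fibronectin (*Ppp1r3c*) and 1 was lower (*Pygm*), against 10.3% and 9.06% of all genes. The median log2 fold change of the 8 members was -0.24 on fibronectin and -0.45 on Geltrex™ over the control, beside -0.016 and -0.012 over all genes tested. The comparisons share samples, so the calls of *Gys1* and *Gyg* in 4 of them and of *Pygm* in 5 come from the same 12 libraries and are not separate results.

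**Figure D2:**
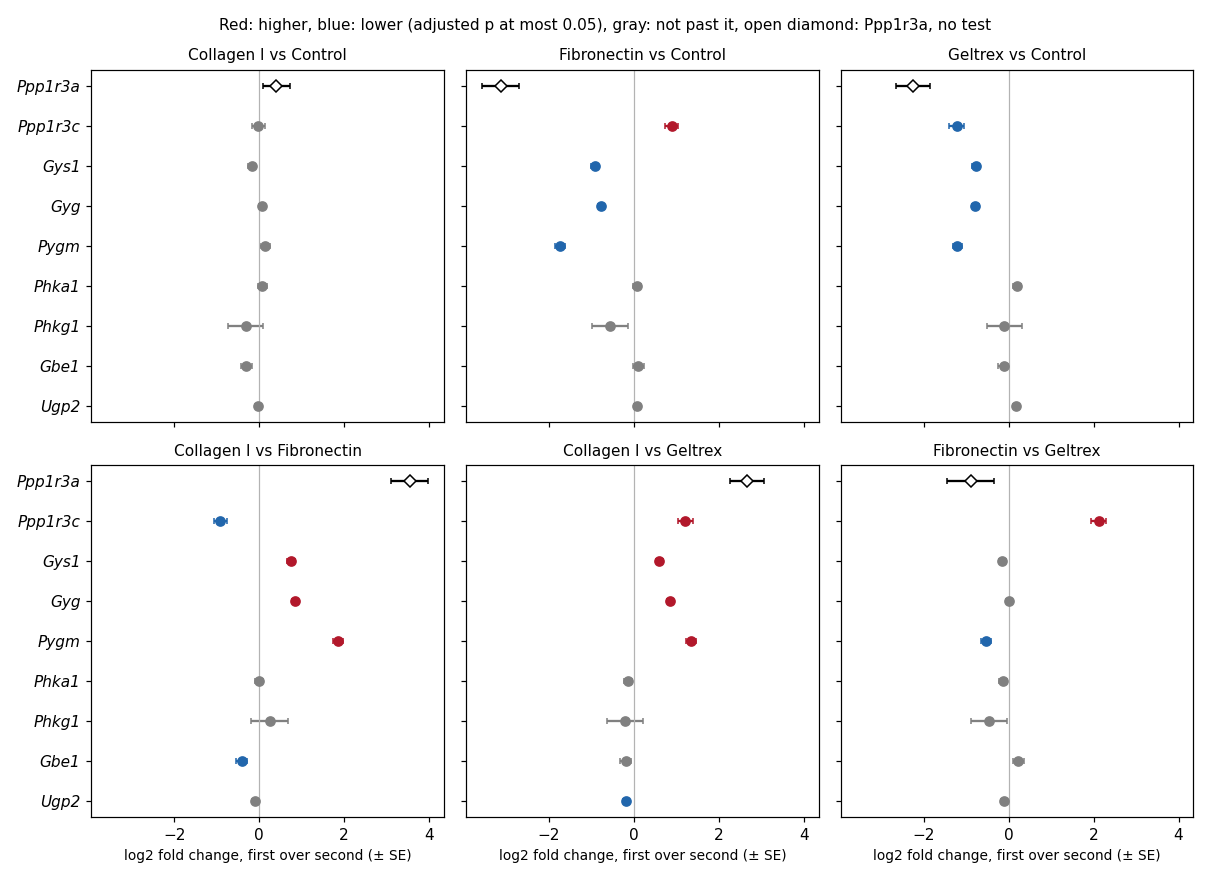
Log2 fold change (x axis, first group over second) of the 9 glycogen genes in the 6 comparisons, with bars of ± 1 SE; red and blue mark genes called higher and lower, gray marks genes past no threshold, and open diamonds mark *Ppp1r3a*, which was not tested. *Gys1*, *Gyg*, and *Pygm* lie on the same side in each comparison of control or Collagen I with fibronectin or Geltrex™, while *Ppp1r3c* changes side.

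Per length, the members spanned a wide range of levels. In the control, *Ugp2* had 58.2 CPM per kb of exon, *Gyg* 30.5, *Gys1* 18.7, *Pygm* 13.9, *Gbe1* 6.26, *Phka1* 4.62, *Ppp1r3c* 1.46, *Ppp1r3a* 0.332, and *Phkg1* 0.115. The order of the means differed between groups. *Phkg1* was lowest in the control and on Collagen I, whereas *Ppp1r3a* was lowest on fibronectin (0.0371 CPM per kb, against 0.0787 for *Phkg1*) and on Geltrex™ (0.0698, against 0.108). On fibronectin *Pygm*, at 4.19 ± 0.564 CPM per kb, was below *Gbe1* (6.72 ± 0.503) and *Phka1* (4.87 ± 0.534), which it exceeded in the other groups. The samples of *Pygm* and *Phka1* overlapped on fibronectin, as did those of *Pygm* and *Gbe1* on Geltrex™.

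The share of each member among its related genes was computed from CPM per kb and is given without a test. *Pygm* made up 56.9%, 58.4%, and 57.0% of the phosphorylase genes in the control samples and 56.6%, 57.4%, and 55.9% on Collagen I, the rest being almost all *Pygb*, the brain form. On fibronectin its share was 28.0%, 24.5%, and 23.3%, and on Geltrex™ 32.6%, 28.4%, and 35.3%. Per kb of exon, the major phosphorylase transcript was thus *Pygm* in the control and on Collagen I and *Pygb* on the other coatings. In CPM, not divided by length, *Pygb* had the higher mean in the control (49.5 against 44.8) and on Collagen I (56.25 against 49.2) as well. The order in those groups therefore rests on the exon lengths used. *Pygb* itself rose over the control by 0.26 on fibronectin (SE 0.08, edgeR adjusted p = 0.0178) and 0.31 on Geltrex™ (SE 0.08, edgeR adjusted p = 0.00661) on the log2 scale. *Pygl*, the liver form, had at most 3 counts in any sample.

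*Phka1* held 31.5% ± 1.09 (SD, n = 3) of the alpha subunit transcripts in the control, 30.3% ± 0.895 on Collagen I, 35.5% ± 1.80 on fibronectin, and 25.6% ± 0.384 on Geltrex™, where all samples were below those of the other groups. The other alpha gene, *Phka2*, rose on Geltrex™ over the control by 0.62 on the log2 scale (SE 0.09, edgeR adjusted p = 6.9e-05). *Phkg1* held 3.08% to 13.9% of the gamma subunit transcripts over all samples, the rest being *Phkg2*, of whose exon length 21.9% overlaps a gene on the other strand. *Gys1* was 99.7% or more of the synthase transcripts in every sample, and the liver synthase gene *Gys2* had at most 2 counts.

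Among the targeting subunit genes *Ppp1r3a* to *Ppp1r3g*, *Ppp1r3c* held the largest share in the control, 52.2% ± 2.35. Its share was 51.8% ± 3.64 on Collagen I, 65.7% ± 2.52 on fibronectin, and 39.3% ± 6.14 on Geltrex™. *Ppp1r3a* held 11.7% ± 3.40 in the control, 16.3% ± 7.24 on Collagen I, 0.888% ± 0.304 on fibronectin, and 4.36% ± 1.51 on Geltrex™. *Ppp1r3e*, with 21 to 75 counts per sample, rose on fibronectin over the control by 0.76 on the log2 scale (SE 0.26, edgeR adjusted p = 0.0342). *Ppp1r3b*, the form first known from liver, and *Ppp1r3f* were not called in any comparison. Of the exon length of *Ppp1r3f*, 52.9% overlaps genes on the same and the other strand. *Ppp1r3d* had 0 counts in every sample, which allows up to 3 counts in a library, and *Ppp1r3g* had at most 2 counts.

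**Figure D3:**
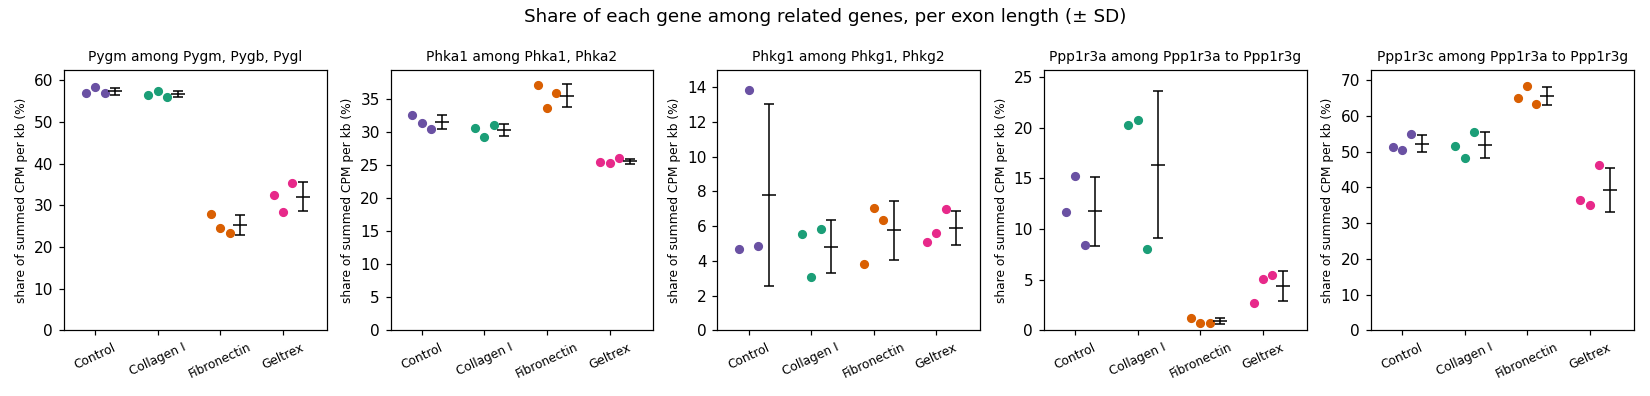
Share (y axis, percent of summed CPM per kb of exon) of *Pygm*, *Phka1*, *Phkg1*, *Ppp1r3a*, and *Ppp1r3c* among their related genes in the 12 samples; points are samples and bars are the mean ± SD of 3 samples. The share of *Pygm* is 55.9% to 58.4% in control and Collagen I samples and 23.3% to 35.3% in fibronectin and Geltrex™ samples.

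The rest of the pathway was read from 32 further genes of glycogen metabolism and glucose entry, of which 25 passed the low-count filter. For Collagen I against the control, edgeR and DESeq2 each called 0 of 25, and 2 had an unadjusted p under 0.05 by edgeR. Of all genes, edgeR called only 0.200% higher and 0.917% lower in that comparison. On fibronectin over the control, 4 of 25 were higher and 5 lower, against 17.1% and 14.7% of all genes, and on Geltrex™ 4 were higher and 2 lower, against 16.4% and 16.6%. Their medians were -0.041 and 0.099 on the log2 scale, with calls in both directions. Fits that left out 1 sample at a time gave 6 to 10 called genes of this list on fibronectin over the control and 4 to 8 on Geltrex™.

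Of these genes, *Slc2a4* had a log2 fold change over the control of -0.84 on fibronectin (SE 0.38), which was not called (edgeR adjusted p = 0.103). No called gene among them fell below the control by as much as *Gyg* on either coating. *Stbd1*, which binds glycogen and membranes, fell on both, with log2 fold changes over the control of -0.36 on fibronectin (edgeR adjusted p = 0.0038) and -0.34 on Geltrex™ (edgeR adjusted p = 0.0053, and 0.123 with the Geltrex™ counts summed). *Pgm1*, a phosphoglucomutase that links glycogen to glycolysis, fell on fibronectin, with a log2 fold change of -0.29 (edgeR adjusted p = 0.00497), whereas its relative *Pgm2* rose by 0.50 (edgeR adjusted p = 0.000441). Of the exon length of *Pgm1*, 13.6% overlaps *Itgb3bp* on the other strand. *Gaa*, the lysosomal glucosidase, had a log2 fold change of -0.29 on fibronectin (edgeR adjusted p = 0.00665). *G6pc3* and *Slc37a4*, which act together on phosphorylated glucose in the endoplasmic reticulum, fell on fibronectin, with log2 fold changes of -0.52 and -0.46 (edgeR adjusted p = 0.0169 and 0.0292). *Gsk3b*, a kinase that restrains glycogen synthase, rose on fibronectin by 0.47 (edgeR adjusted p = 0.0067).

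On Geltrex™, *Slc2a1*, the basal glucose transporter, rose over the control by 0.51 on the log2 scale (edgeR adjusted p = 4.9e-05) and *Hk1*, a hexokinase, by 0.24 (edgeR adjusted p = 0.0179), while *Pgm2l1* fell, with a log2 fold change of -0.40 (edgeR adjusted p = 0.0095). *Slc2a1* was also higher on Geltrex™ than on fibronectin, with a log2 fold change of fibronectin over Geltrex™ of -0.43 (edgeR adjusted p = 0.000608). *Slc2a4*, the insulin-responsive transporter, was called only on Collagen I over fibronectin, with a log2 fold change of 1.34 (SE 0.37, edgeR adjusted p = 0.00805) from 8 to 33 counts per sample. Collagen I over fibronectin gave 8 of 25 higher and 5 lower, against 22.1% and 22.9% of all genes, with *Phkg2* at 0.55 and *Phka2* at 0.35 among the higher and *Ppp1cb* at -0.40 and *Ppp1cc* at -0.22, both catalytic subunits of protein phosphatase 1, among the lower. Of the exon length of *Ppp1cb*, 17.5% overlaps *Gm43312* on the same strand. Collagen I over Geltrex™ gave 4 of 25 higher and 4 lower, against 18.2% and 19.0% of all genes, and fibronectin over Geltrex™ gave 2 higher and 4 lower, against 10.3% and 9.06%. With the Geltrex™ counts summed, these numbers fell to 3 called in the former (*Pgm2l1*, *Phka2*, and *Slc2a1*), 2 in the latter (*Pgm2l1* and *Phka2*), and 2 in Geltrex™ over the control (*Phka2* and *Slc2a1*), while *Hk1*, *Pgm2l1*, *Pygb*, and *Stbd1* were no longer called over the control (edgeR adjusted p = 0.216, 0.128, 0.112, and 0.123). *Phkb*, *Hk2*, *Gsk3a*, *Epm2a*, and *Ppp1ca* were not called in any comparison.

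Markers of cell state also differed between these cultures. On fibronectin all 12 myotube markers were called lower than in the control (median log2 fold change -2.02), against 14.7% of all genes. The same 12 were lower on Geltrex™ (median -1.53), against 16.6%. Between Collagen I and the control 0 of 12 were called (median 0.067), where 0.200% of all genes were called higher and 0.917% lower. Between fibronectin and Geltrex™, 6 of 12 were lower on fibronectin and 0 higher (median -0.41), against 9.06% and 10.3% of all genes. The log2 fold change of *Pygm* there was -0.53, a call that was lost with the Geltrex™ counts summed. All 10 markers of proliferating cells, among them *Mki67* and *Top2a*, were higher than in the control on fibronectin (median 1.64, against 17.1% of all genes) and on Geltrex™ (median 1.63, against 16.4%). Their summed level was 198 to 256 CPM in the control and 173 to 181 CPM with Collagen I, but 663 to 878 CPM with fibronectin and 690 to 746 CPM with Geltrex™. Of 6 markers of undifferentiated myoblasts, 2 (*Cd34* and *Sdc4*) were higher on each of these coatings than in the control, against 17.1% of all genes on fibronectin and 16.4% on Geltrex™. The summed level of the 6 was 278 to 307 CPM with Collagen I, 330 to 371 CPM in the control, 409 to 475 CPM with fibronectin, and 515 to 539 CPM with Geltrex™. *Sdc4* made up most of this sum, with means of 225 CPM in the control and 381 CPM on Geltrex™. *Pax7* (log2 fold changes of -0.19 on fibronectin and -1.35 on Geltrex™), *Myf5*, *Id1*, and *Id3* were not called on either coating over the control. The part of these cell state markers in the changes of the glycogen genes was not tested.

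On fibronectin over the control, the log2 fold changes of *Pygm* (-1.73), *Gys1* (-0.92), and *Gyg* (-0.78) stood beside the myotube marker median of -2.02. *Ppp1r3c* had a log2 fold change over the control of 0.89 on fibronectin and of -1.22 on Geltrex™. Markers of other tissues that handle glycogen or lipid were near 0. The 5 adipocyte markers summed to at most 0.474 CPM in any sample. The 4 hepatocyte markers summed to at most 0.0451 CPM, with the exception of 2.31 CPM in the first Geltrex™ sample, which also had the lowest *Ppp1r3a* level of its group. Leaving out 1 sample at a time gave log2 fold changes of *Ppp1r3a* on Geltrex™ over the control of -2.46 to -1.89. This range describes the gene that led to the choice of the list and supports nothing further. The source of the hepatocyte marker counts was not tested.

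**Figure D4:**
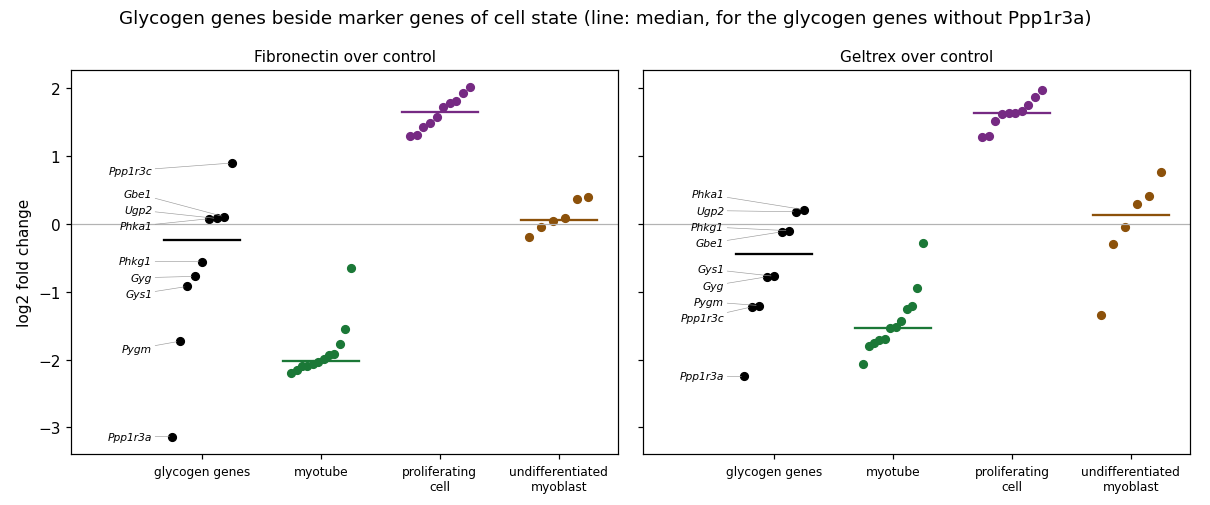
Log2 fold change (y axis) on fibronectin and on Geltrex™ over the control for the 9 glycogen genes and for myotube, proliferating cell, and undifferentiated myoblast markers; each point is a gene and lines are medians, without *Ppp1r3a* for the glycogen genes. Myotube markers lie below 0 (medians -2.02 and -1.53) and proliferation markers above 0 (medians 1.64 and 1.63), and the glycogen genes spread from *Ppp1r3a* at -3.14 to *Ppp1r3c* at 0.89 on fibronectin.

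Across the 12 samples, the log2 CPM of *Ppp1r3a* followed *Pygm* (Pearson's r = 0.964), *Gys1* (0.938), and *Gyg* (0.932), and the coefficient was 0.162 with *Phkg1*, -0.107 with *Ppp1r3c*, -0.147 with *Phka1*, -0.365 with *Gbe1*, and -0.604 with *Ugp2*. These coefficients describe 12 points that fall into the same high and low groups and share libraries and depth, and no test was made of them. Among 12312 other genes with a mean of at least 1 CPM, the 5 with the highest correlation with *Ppp1r3a* included *Tmem117* (0.987), *Adgrg1* (0.978), *Ctxn3* (0.978), and *Gpr155* (0.978). *Tmem117*, for example, had 4.69, 5.69, and 3.61 CPM in the control samples and 5.11, 5.65, and 4.10 CPM on Collagen I, but 2.45, 1.76, and 1.86 CPM with fibronectin and 1.97, 2.84, and 2.30 CPM with Geltrex™. Like *Ppp1r3a*, it was lower in all fibronectin and Geltrex™ samples than in all control and Collagen I samples, and within the control both genes were highest in the second sample. *Tmem117* was picked by its correlation with *Ppp1r3a* over these same samples, so this likeness is not a separate result.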

How the data were processed

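RNA-seq libraries from 12 samples of C2C12 GFP cells, 3 on uncoated plates and 3 on each of the Collagen I, fibronectin, and Geltrex™ coatings, were analyzed. The authors deposited a table of raw read counts for each gene and sample, which they made with FastQC, Trimmomatic, HISAT2, and featureCounts. Nothing was normalized or pooled in the deposited counts. Tool versions, the genome build, the annotation release, and the handling of strand and of multiply mapped reads are not given in the sources used here, so reads of overlapping genes cannot be told apart. All 55536 identifiers were matched to the GENCODE M21 annotation of GRCm38, which gave names, positions, and exon lengths. Promoter sequences came from RefSeq (GRCm38.p6), where all 9 members were found.

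Counts were tested with the quasi-likelihood test of edgeR 4.0.16 in R 4.3.3, two-sided. TMM scaling, the filterByExpr filter (at least 10 counts in enough samples, at least 15 in total), and 1 model of the 4 groups with 8 residual degrees of freedom were used. SE is the log2 fold change divided by the root of the F statistic. Samples were grouped by their treatment label. The genes named are the 9 members, the genes of a wider pathway list that were called in at least 1 of 6 comparisons, and the 5 genes most correlated with *Ppp1r3a*. A few of these genes are not reported here. Members of the wider list that were never called or not tested, and *Mki67*, *Top2a*, *Myog*, *Acta1*, and *Myh3*, are named as examples. All 6 markers of undifferentiated myoblasts are named. Members and lists were chosen with earlier results of these data known.

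Tests were repeated with DESeq2 1.42.0, with RLE scaling, with no filter, with a floor of 10 counts in every sample, from the 2 groups of a comparison alone, with a block for the replicate number, without each sample in turn, and, chosen after seeing the data, with the Geltrex™ counts summed into 1 sample. Replicate numbers in the titles were not taken as pairs, since the correlation of same-numbered deviations exceeded 0.1 for every number in none of the comparisons. The procedure was tested on simulated data. Bounds for a count of 0 cover counting error only.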

Additional observations from a re-analysis of the deposited data

How the results depend on the processing

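Among the results for the 8 tested members, the calls of *Ppp1r3c*, *Gys1*, and *Gyg* and those of *Pygm* between control or Collagen I and the other coatings were made under every alternative tried. The replicate block moved no log2 fold change of a member by more than 0.048 and ended only the call of *Ugp2* on Collagen I over Geltrex™ (log2 fold change -0.19, adjusted p = 0.0578), so in the paired fit 4 in place of 5 members were called there. With the Geltrex™ counts summed, 1 in place of 2 members was called between fibronectin and Geltrex™, and in the wider list 2 in place of 6 genes in Geltrex™ over the control, 3 in place of 8 in Collagen I over Geltrex™, and 2 in place of 6 in fibronectin over Geltrex™, from a fit with fewer samples.

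Values near 0 changed sign without being called. *Phka1* on Collagen I over fibronectin, 0.0033 in the model reported, was -0.0074 with DESeq2, -0.0074 with RLE scaling, -0.0049 without a filter, and -0.011 with the Geltrex™ counts summed, and *Gyg* on fibronectin over Geltrex™, 0.0066 in that model, was -0.0019 with at least 10 counts in every sample. Leaving out 1 sample at a time gave ranges that crossed 0 for *Ppp1r3c* (-0.17 to 0.076), *Phkg1* (-0.53 to 0.19), and *Ugp2* (-0.051 to 0.018) on Collagen I over the control, for *Gbe1* on fibronectin (-0.029 to 0.21) and *Phkg1* on Geltrex™ (-0.31 to 0.41) over the control, for *Phka1* (-0.085 to 0.063) and *Phkg1* (-0.041 to 0.60) on Collagen I over fibronectin, for *Phkg1* on Collagen I over Geltrex™ (-0.42 to 0.015), and for *Gyg* on fibronectin over Geltrex™ (-0.038 to 0.053). The cause was not tested. *Ppp1r3a* and *Phkg1* have no value with at least 10 counts in every sample, since each had fewer in some sample, and their low counts limit the precision most. Where a sample was left out, the 2 that remained were assumed to vary like the other groups.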
